A study of Mus musculus with 2 samples.

Results

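The 58 genes described here are the cyclins, cyclin-dependent kinases (CDKs) and their inhibitors, E2F factors, replication helicase subunits, ribonucleotide reductase subunits, centromere proteins, kinesins and mitotic kinases whose symbols stand in a table of 4898 gene rows. They were matched by symbol, and the match uses no measured value, but the symbols were chosen with earlier results of these data known. The table comes from RNA sequencing of DC1940 cells, a line of wild type C57BL/6 mouse dendritic cells of the CD8α+ kind, known for presenting antigen taken up from other cells to CD8 T cells. The only group consisted of 2 libraries from cells that were transduced with an empty vector and then activated with pIC, a double-stranded RNA mimic and TLR3 agonist, for a time not stated for these libraries. Vector and pIC are thus common to every value below. Background not given in the labels is that dendritic cell lines of this name were established from mice expressing the SV40 large T oncoprotein under the CD11c promoter. That oncoprotein binds the retinoblastoma proteins and p53. Whether that bears on the values below was not tested.

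The table gives 1 FPKM value per gene (fragments scaled by transcript length and by the mapped total), the authors' own value over both libraries. Values below therefore come without SD or n, no difference between genes could be set against the spread between libraries, and the depth is unknown. The submitters' name for the table calls its rows genes that differ between unstimulated and stimulated cells. The direction and the size of that difference were not analysed here, and every value is a level after stimulation. In RNA from a whole culture, few dividing cells with much of a transcript cannot be told apart from many with little of it. Whether a marker is listed depends on a difference between conditions, so the following counts do not measure cell identity or purity. Of 8 markers of CD8α+ dendritic cells, 6 were listed, at 5.62 FPKM (Flt3) to 387 FPKM (Xcr1). Among them, Cd8a had 292 FPKM and Zbtb46 24.3 FPKM, while Irf8 and Batf3 were not listed. Of 5 macrophage markers, 4 were listed, at 0.460 to 33.2 FPKM, the highest being Cd68. Of 4 lymphocyte markers and of 4 fibroblast and epithelial markers, 1 each was listed, Lck at 1.22 FPKM and Cdh1 at 0.772 FPKM.

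The cell cycle is driven by CDKs, which need a cyclin partner to be active. D-type cyclins with CDK4 and CDK6 start the passage from G1 into S phase by phosphorylating the retinoblastoma proteins, which releases E2F factors. E2F factors turn on the genes of DNA synthesis, and CIP/KIP and INK4 inhibitors hold the kinases back. Later, cyclins A and B with CDK1 drive mitosis, and kinetochore proteins, kinesins and the Polo and Aurora kinases separate the chromosomes. Genes of mitosis are known for a promoter element called the cell cycle genes homology region (CHR), bound by the DREAM and MuvB complexes, often close to CCAAT boxes, which bind NF-Y. Dendritic cells that have matured in tissue divide little, but a cell line divides in culture.

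Promoter sequence is a feature that the choice of members did not use, and it is shown first because a larger share of mitotic members than of all protein-coding genes held CHR elements, by the counts given with the promoters below. The following upstream stretches are from RefSeq promoters on GRCm38.p6, each ending at the base before the transcript start and written on the gene's strand. They were picked because they carry the elements upstream of the start. In the first 5, all of mitotic genes, capitals mark CHR elements (TTTGAA or TTCGAA, which on the other strand reads TTCAAA or TTCGAA) and CCAAT boxes (CCAAT, or ATTGG on the other strand), and in Cdk1 also an E2F element (TTTCGCGC). They lie at chr10:69352913-69353062 on the minus strand for Cdk1, chr4:118437344-118437443 minus for Cdc20, chr19:37376282-37376381 plus for Kif11, chr7:127042421-127042520 minus for Kif22 and chr8:116921640-116921739 plus for Cenpn.
Cdk1: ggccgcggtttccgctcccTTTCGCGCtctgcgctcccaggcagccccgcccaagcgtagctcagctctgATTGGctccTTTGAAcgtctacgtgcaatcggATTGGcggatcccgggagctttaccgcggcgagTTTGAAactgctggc
Cdc20: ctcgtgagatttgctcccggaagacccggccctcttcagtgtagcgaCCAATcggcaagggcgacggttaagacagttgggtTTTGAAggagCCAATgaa
Kif11: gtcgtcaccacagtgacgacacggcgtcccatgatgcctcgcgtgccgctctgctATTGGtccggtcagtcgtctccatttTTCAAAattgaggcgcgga
Kif22: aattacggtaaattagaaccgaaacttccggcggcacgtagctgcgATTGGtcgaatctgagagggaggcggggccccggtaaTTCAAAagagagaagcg
Cenpn: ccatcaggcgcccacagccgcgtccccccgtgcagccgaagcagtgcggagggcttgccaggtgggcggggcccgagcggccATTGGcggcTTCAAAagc
The next 4 belong to replication and G1/S genes. In Mcm5 (chr8:75109349-75109508, plus strand) capitals mark a pair of overlapping E2F elements on opposite strands, in Mcm2 (chr6:88898781-88898940, minus strand) a CHR element, and in the upstream start of Cdkn2a (chr4:89294620-89294739, minus strand), that of the ARF transcript, an E2F element. In the upstream start of Cdkn1a (chr17:29090879-29090978, plus strand) they mark a pair of p53-type half-sites.
Mcm5: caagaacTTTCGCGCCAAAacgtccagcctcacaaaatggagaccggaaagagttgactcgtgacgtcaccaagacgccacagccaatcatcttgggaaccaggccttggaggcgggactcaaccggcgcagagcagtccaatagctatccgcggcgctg
Mcm2: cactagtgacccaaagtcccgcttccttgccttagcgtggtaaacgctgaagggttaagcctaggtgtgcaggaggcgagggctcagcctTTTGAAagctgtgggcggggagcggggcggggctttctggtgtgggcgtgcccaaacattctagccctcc
Cdkn2a: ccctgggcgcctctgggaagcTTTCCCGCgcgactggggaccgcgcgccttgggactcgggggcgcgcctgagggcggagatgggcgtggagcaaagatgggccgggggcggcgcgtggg
Cdkn1a: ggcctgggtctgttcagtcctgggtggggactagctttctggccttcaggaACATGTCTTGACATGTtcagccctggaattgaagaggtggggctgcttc

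Of all RefSeq protein-coding genes whose symbols have the same pattern, 58 of 148 were listed (39.2%). Across the 21900 protein-coding genes of RefSeq, the percentage listed was 22.2%. Genes with too few reads for the authors to test are counted as not listed, and 1 row of the table was not used here, so these shares describe the table and not the cells. By role, 13 of 27 G1/S genes (48.1%) and 23 of 51 genes of mitosis (45.1%) were listed. The share of replication genes, 4 of 15 (26.7%), lay near that of all protein-coding genes. Another 18 of 55 genes (32.7%) share the names but were given other roles. No test was made of these shares.

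**Figure D1:**
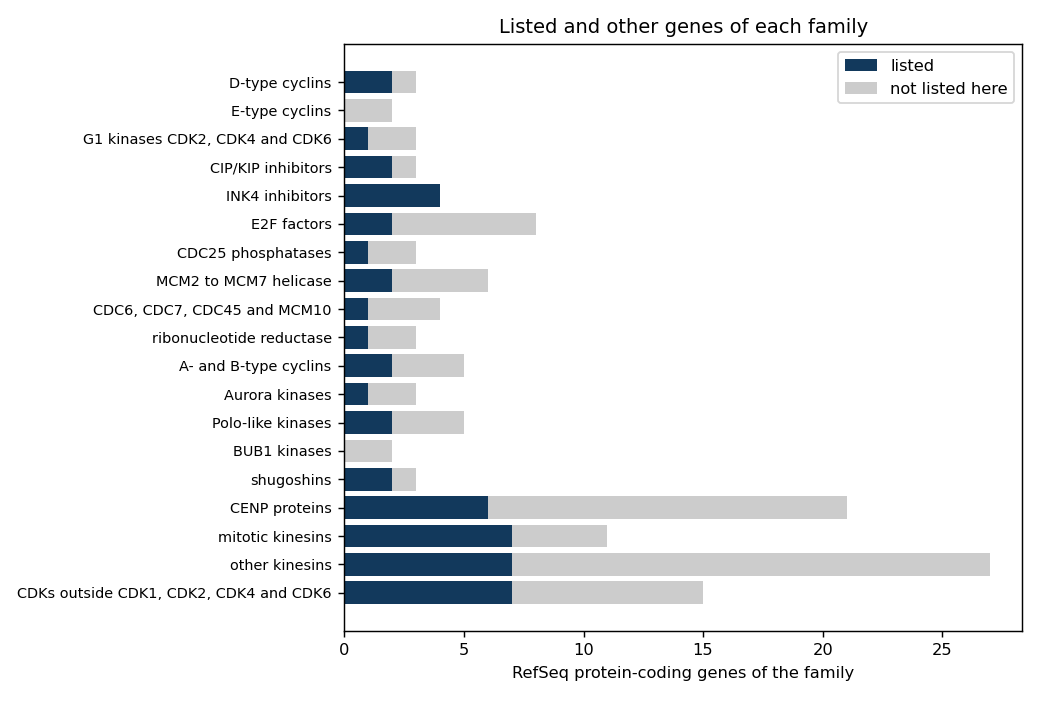
The bars give, for the gene families of the pattern, the number of RefSeq protein-coding genes that were listed (dark) and the number not listed here (grey). The INK4 inhibitors are listed in full (4 of 4), and of the E-type cyclins and BUB1 kinases 0 of 2 each are listed. Across all protein-coding genes 22.2% are listed, so 0 of 2 does not stand out, and no family share was tested.

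Taken as levels, the members ranged between 0.272 FPKM (Cdk20) and 645 FPKM (Cdkn1a). Their median was 17.1 FPKM, with quartiles of 6.85 and 34.2, against a median of 9.59 FPKM and quartiles of 2.29 and 33.4 for the other 4840 rows. At 10 FPKM or more stood 38 members (65.5%), against 49.4% of all rows, and at 100 FPKM or more 6 members (10.3%), against 9.6% of all rows, a share near that of the table. Below 1 FPKM were 4 members (6.90%), against 14.1% of all rows. All 58 together held 1.12% of the FPKM summed over the table. By role, the median was 56.2 FPKM for the 13 G1/S genes, 80.1 FPKM for the 4 replication genes, 16.9 FPKM for the 23 genes of mitosis and 11.1 FPKM for the 18 with other roles. Above the upper quartile of the table (33.4 FPKM) stood 7 of 13 G1/S genes and 4 of 4 replication genes, but 1 of 23 genes of mitosis, Cdk1.

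**Figure D2:**
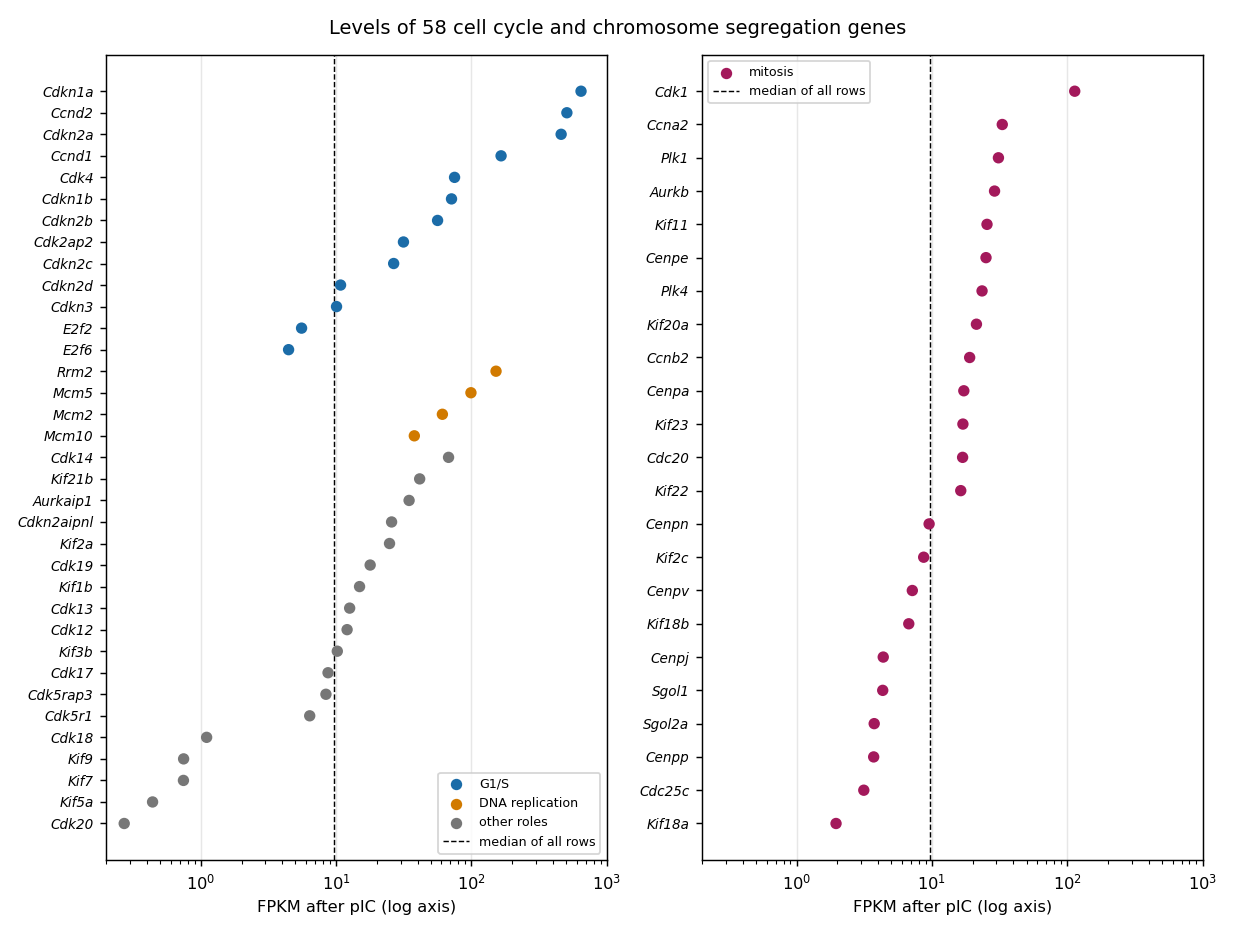
Each point is the authors' FPKM value of 1 member after pIC stimulation (log axis), coloured by role, and the dashed line is the median of all 4898 rows (9.68 FPKM). G1/S genes reach the highest values (Cdkn1a, 645 FPKM), most genes of mitosis lie between 1.96 and 33.1 FPKM, and the members under 1 FPKM all belong to the genes with other roles.

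**Figure D3:**
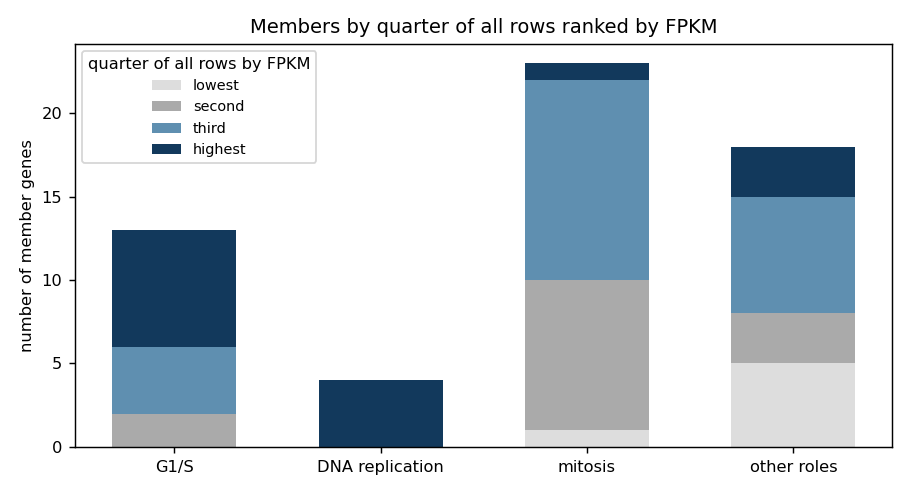
Bars count the members of each role by where they stand between the quartiles of all table rows ranked by FPKM. All 4 replication genes are above the upper quartile, and of the 23 genes of mitosis 9 lie between the lower quartile and the median and 12 between the median and the upper quartile.

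Among the G1/S genes, CDK inhibitors and D-type cyclins held the highest levels. Cdkn1a, which encodes p21, an inhibitor of CDK2 that p53 induces, had 645 FPKM and rank 45 of all rows (mm10, chromosome 17, 29090979 to 29100722, plus strand). Ccnd2, which encodes cyclin D2, followed at 507 FPKM (chromosome 6, 127125709 to 127212419, minus strand). Cdkn2a, the gene of the INK4 inhibitor p16 and of ARF, which protects p53 from degradation, had 460.1 FPKM (chromosome 4, 89274473 to 89294619, minus strand). Its row carries the accessions of both transcripts, so p16 and ARF share 1 value. These 3 genes ranked 45, 66 and 78 of 4898 rows. Ccnd1, which encodes cyclin D1, had 166 FPKM (chromosome 7, 144929931 to 144939925, minus strand), in a row that also carries an accession of the microRNA gene Mir3962, so the value cannot be assigned to Ccnd1 alone. Ccnd2 thus stood 3.06 times as high as Ccnd1, and the third D-type cyclin gene, Ccnd3, was not listed.

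Cdk4, the kinase partner of the D-type cyclins, had 75.0 FPKM, and its interval overlaps Tspan31. Above it stood Ccnd2, at 6.76 times its level, and Cdkn1a, at 8.60 times its level. The second CIP/KIP inhibitor gene, Cdkn1b (p27), had 71.2 FPKM, and Cdkn1a exceeded it 9.06 times. All 4 genes of the INK4 family were listed (100%, against 22.2% of all protein-coding genes), and they differed widely in level. Next to Cdkn2a stood Cdkn2b (p15) at 56.2 FPKM, Cdkn2c (p18) at 26.6 FPKM and Cdkn2d (INK4D) at 10.8 FPKM, so that Cdkn2a exceeded its neighbour Cdkn2b 8.19 times. The intervals of Cdkn2a and Cdkn2b lie 560 bases apart on chromosome 4. The Cdkn2b interval is 223442 bases long, against 4744 bases for the RefSeq gene, and overlaps 4 non-coding genes of GENCODE M21. The Ccnd2 interval is 86711 bases long, against 27027 for the RefSeq gene, and also overlaps 4 non-coding genes. The labels do not say whether reads were counted by strand, so reads from overlapping genes cannot be told apart. The intervals of 10 of the 58 members overlap protein-coding genes of GENCODE M21, which are named or counted where the member is described, and that of Ccnd1 overlaps LTO1.

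At the low end, the listed E2F genes stood at single-digit levels. E2f2, an activator E2F, had 5.55 FPKM and E2f6, a repressor E2F, 4.45 FPKM, and the other 6 E2F genes were not listed. The share listed, 2 of 8 (25%), lay near the 22.2% of all protein-coding genes. Cdkn3, a CDK-associated phosphatase, had 10.1 FPKM and Cdk2ap2, a CDK2-associated protein, 31.4 FPKM. Neither E-type cyclin gene was listed, nor were Cdk2 and Cdk6. Of 17 other genes of G1/S control outside the symbol pattern, 9 were listed (52.9%, against 22.2% of all protein-coding genes), with a median of 17.3 FPKM. Trp53, which encodes p53, had 266 FPKM, and Cks1b, a CDK subunit, 124 FPKM. Mdm2, the ubiquitin ligase of p53, had 39.0 FPKM, Myc 35.0 FPKM, and Lin54, the CHR-binding subunit of the MuvB complex, 17.3 FPKM. The retinoblastoma genes Rb1 and Rbl2 were lower, at 5.74 and 3.84 FPKM, in intervals that overlap Lpar6 and Rcbtb2 for Rb1 and Aktip for Rbl2.

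Replication genes were listed at a share near that of all protein-coding genes (4 of 15, 26.7%, against 22.2%). The 4 listed members stood high. Rrm2, the S phase subunit of ribonucleotide reductase, which makes deoxynucleotides, had 152 FPKM (chromosome 12, 24708254 to 24714146, plus strand). Mcm5 and Mcm2, 2 of the 6 subunits of the MCM helicase, had 99.2 FPKM (chromosome 8, 75109509 to 75128439, plus strand) and 61.0 FPKM (chromosome 6, 88883474 to 88898780, minus strand). These subunits sit in the same ring, and the level of Mcm5 was 1.63 times that of Mcm2, while Mcm3, Mcm4, Mcm6 and Mcm7 were not listed. Mcm10, which helps fire origins, had 37.8 FPKM (chromosome 2, 4990724 to 5012791, minus strand). Cdc6, Cdc7, Cdc45 and Rrm1 were not listed. Outside the symbol pattern, 8 of 35 replication genes were listed (22.9%), again near the 22.2% of all protein-coding genes, with a median of 28.7 FPKM. These 8 ranged between 4.08 and 105 FPKM, and the lowest stood below the median of all rows (9.68 FPKM). They were led by Rfc3, a clamp loader subunit, at 105 FPKM, the single-strand binding genes Rpa1 and Rpa3 at 57.5 and 38.5 FPKM, the thymidine kinase gene Tk1 at 32.5 FPKM and the primase gene Prim1 at 24.9 FPKM. The Tk1 interval overlaps Afmid and Gm20708.

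The mitotic kinase gene Cdk1 stood above both listed genes of A- and B-type cyclins. It had 114 FPKM (chromosome 10, 69336635 to 69352912, minus strand), 3.43 times the level of Ccna2 and 5.98 times that of Ccnb2. Ccna2, whose cyclin acts in S phase and on entry to mitosis, had 33.1 FPKM (chromosome 3, 36552606 to 36571996, minus strand), and its interval overlaps Exosc9. Ccnb2, a cyclin B gene, had 19.0 FPKM, and Ccnb1 was not listed. The Polo-like and Aurora kinase genes that were listed stood below Cdk1. Plk1, a Polo-like kinase needed for the spindle, had 31.0 FPKM (chromosome 7, 122159435 to 122169884, plus strand), Aurkb, of the chromosomal passenger complex, 29.0 FPKM (chromosome 11, 69045637 to 69051664, plus strand) and Plk4, which starts centriole duplication, 23.5 FPKM. Cdc20, the activator of the anaphase-promoting complex, had 16.9 FPKM, in an interval that overlaps Elovl1. Cdc25c, a phosphatase that activates CDK1, was low at 3.14 FPKM, in an interval that overlaps Gm3550.

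Of 11 mitotic kinesin genes, 7 were listed (63.6%, against 22.2% of all protein-coding genes), and their levels lay between 1.96 and 25.5 FPKM. Kif11, the motor that pushes spindle poles apart, had 25.5 FPKM, Kif20a, of the central spindle, 21.3 FPKM, Kif23, of the centralspindlin complex, 16.9 FPKM, and the chromokinesin gene Kif22 16.3 FPKM. The lowest of these 7 were Kif2c at 8.69 FPKM, Kif18b at 6.74 FPKM and Kif18a at 1.96 FPKM. The Kif20a interval overlaps Brd8 and Cdc23, and that of Kif18a overlaps Mettl15. Of 21 CENP genes, 6 were listed (28.6%), a share near the 22.2% of all protein-coding genes. Cenpe, a kinetochore kinesin, had 25.1 FPKM, Cenpa, the centromeric histone H3, 17.2 FPKM, and Cenpn, which binds that histone's nucleosome, 9.53 FPKM. Cenpv had 7.16 FPKM, Cenpj, a centriole protein, 4.37 FPKM, and Cenpp 3.71 FPKM, the last in an interval of 188673 bases that overlaps 6 other protein-coding genes. The shugoshin genes Sgol1 and Sgol2a, whose products protect centromeric cohesin, had 4.33 and 3.74 FPKM, and the Sgol2a interval overlaps Kctd18. Bub1 and Bub1b, of the spindle checkpoint, were not listed.

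Genes of mitosis outside the symbol pattern were listed at a higher share than those of replication, 27 of 47 (57.4%), against 22.2% of all protein-coding genes, with a median of 21.2 FPKM and values between 5.59 and 203 FPKM. Pttg1, the securin gene, had 203 FPKM. Mki67, which encodes the proliferation marker Ki-67, had 96.3 FPKM, the kinetochore gene Zwint 85.2 FPKM, the passenger complex gene Birc5 65.7 FPKM and the checkpoint gene Bub3 58.6 FPKM, the last in an interval that overlaps Fgfr2. Over the 3 roles, 44 of 99 such genes were listed (44.4%), against the same 22.2%. The difference between the shares was not tested.

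The 18 members that share a name but were given other roles in the hand-written list lay between 0.272 and 67.7 FPKM. Cdk14, a kinase of cyclin Y, had 67.7 FPKM (chromosome 5, 4803384 to 5380251, minus strand), and its interval overlaps 10 non-coding genes. Kif21b, a kinesin that limits microtubule growth, had 41.4 FPKM (chromosome 1, 136131401 to 136178014, plus strand). Aurkaip1, known for a part in the mitochondrial ribosome, had 34.6 FPKM (chromosome 4, 155831269 to 155833098, plus strand) and Cdkn2aipnl 25.7 FPKM (chromosome 11, 51967631 to 51977336, plus strand). The transcription kinases stood in the middle, with Cdk19, of the Mediator complex, at 17.8 FPKM and Cdk13 and Cdk12, which phosphorylate RNA polymerase II, at 12.6 and 12.1 FPKM. Transport and other kinesins ran through the range, with Kif2a at 24.8 FPKM, Kif1b at 14.9 FPKM and Kif3b at 10.2 FPKM. Cdk17 had 8.71 FPKM, Cdk5rap3 8.41 FPKM, Cdk5r1, the activator of CDK5, 6.38 FPKM and Cdk18 1.10 FPKM. The lowest 4 were Kif9 at 0.746 FPKM, Kif7, of Hedgehog signalling, at 0.744 FPKM in an interval that overlaps Ticrr, the neuronal kinesin gene Kif5a at 0.440 FPKM and Cdk20 at 0.272 FPKM.

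The promoters of the mitotic members held CHR elements and CCAAT boxes at higher shares than those of all genes. RefSeq promoters (250 bases before to 50 after each transcript start) were matched for 46 of the 58 members. The 12 others were Aurkaip1, Aurkb, Ccna2, Ccnd1, Ccnd2, Cdc25c, Cdk17, Cdk19, Cdk5r1, Kif20a, Kif21b and Kif5a. A CHR element stood in 12 of 19 promoters of mitotic genes (63.2%), in 3 of 11 G1/S genes (27.3%), in 1 of 4 replication genes and in 0 of the 12 genes with other roles, against 20.2% of 17492 protein-coding genes. A CCAAT box stood in 13 of 19 mitotic genes (68.4%), 7 of 11 G1/S genes (63.6%), 4 of 4 replication genes and 5 of 12 genes with other roles (41.7%), against 42.3% of all protein-coding genes. Both elements together were found in 11 of 19 mitotic genes (57.9%), against 9.24% of all. Of the mitotic genes with a CHR element, 11 of 12 thus also had a CCAAT box, the exception being Kif2c. Among all protein-coding genes with a CHR element, 45.7% had one. Within the shorter stretch of 100 bases before to 50 after the start, a CHR element stood in 11 of 19 mitotic genes (57.9%), against 8.73% of all. In that stretch 1 of 11 G1/S genes (9.09%) held one, a share near that of all genes.

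**Figure D4:**
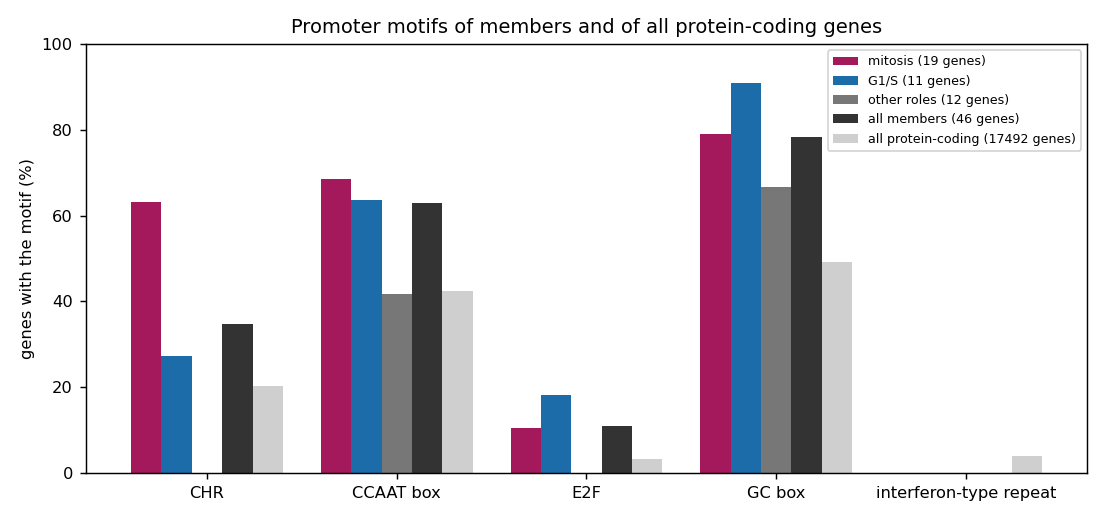
Bars give the percentage of genes whose promoter holds each element, on either strand, for mitotic members, G1/S members, members with other roles, all members and all protein-coding genes (the 4 replication genes are counted among all members). The CHR element is in 63.2% of mitotic members and 20.2% of all protein-coding genes. The interferon-type repeat is in 0 of the 46 members with a promoter and in 3.94% of all protein-coding genes. That share lies inside the members' interval (0 to 7.71%), so the absence does not stand out.

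In Cdk1, printed above, both CHR elements lie upstream of the start, at bases -71 to -66 and -15 to -10, with the E2F element at -131 to -124. In Cdc20 the element lies at -18 to -13, in Kif11 at -19 to -14, in Kif22 at -17 to -12, with a further one at -215 to -210, and in Cenpn at -9 to -4. Kif2c has its element at -103 to -98. Those of Kif23, Kif18b, Cenpa, Sgol1 and Plk1 lie after the start, between bases 3 and 36, and Ccnb2 has 1 there and another upstream. Levels of mitotic members with a CHR element had a median of 16.9 FPKM and a range of 4.33 to 114 FPKM. The 7 without one had a median of 4.37 FPKM and a range of 1.96 to 25.1 FPKM, so the ranges overlap. Cenpe and Plk4, at 25.1 and 23.5 FPKM, were the highest of those without one. Ccna2, Aurkb, Kif20a and Cdc25c, at 33.1, 29.0, 21.3 and 3.14 FPKM, had no matched promoter and are in neither group. A link between the element and the level was not tested.

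**Figure D5:**
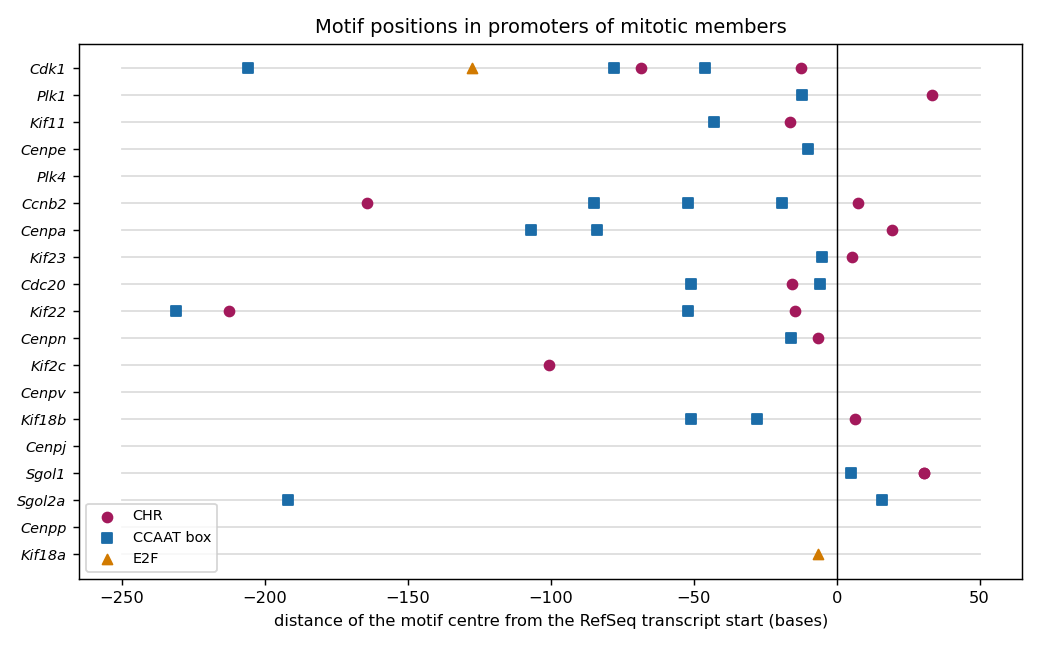
Each line is the promoter window of 1 mitotic member, ordered by FPKM with the highest at the top, and symbols mark the centres of CHR elements, CCAAT boxes and E2F elements by their distance in bases from the RefSeq transcript start. Most CHR elements lie close to the start, and Plk4, Cenpv, Cenpj and Cenpp hold none of the 3 elements.

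E2F elements in the form searched (TTTCCCGC, TTTGGCGC, TTTCGCGC or TTTGCCGC) stood in 5 of 46 members (10.9%), against 3.29% of all protein-coding genes. They were Mcm5, Cdkn2a, E2f2, Cdk1 and Kif18a. In the shorter window the count was 3 of 46 (6.52%), without Mcm5 and Cdk1, whose elements lie farther upstream. The shares there were 2.36% of all listed genes and 1.80% of all protein-coding genes, both inside the members' interval (1.37 to 17.9%). The Mcm5 promoter holds its pair at bases -153 to -142, and Rrm2, Mcm2 and Mcm10 had none in the window. A GC box (GGGCGG) stood in 36 members (78.3%), against 70.5% of all listed genes and 49.2% of all protein-coding genes. In the shorter window the order against the listed genes turned round, with 58.7% of members, against 62.1% of all listed genes and 41.7% of all protein-coding genes. The interferon-type repeat is a pair of GAAA separated by any 2 bases on either strand. It was in 0 of 46 members, against 4.67% of all listed genes and 3.94% of all protein-coding genes. Both of these shares lie inside the members' interval (0 to 7.71%), so the absence from the members does not stand out. In Cdkn1a, the spelling ACATGTNNNNACATGT was found at bases -49 to -34 of the upstream start. It was written down from this promoter after it had been read, and 1 of 17492 protein-coding genes, Cdkn1a itself, held it. These matches are of letters in a window, and no binding was measured.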

How the data were processed

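Poly(A) RNA of 2 libraries was sequenced, per the labels' protocols. Per the submitters' processing notes, the build was mm10 and the tools were Cufflinks 2.2.1, TopHat2 2.1.0 and FastQC 0.11.5. The authors deposited 1 FPKM value per gene. The sources used here do not say how they merged the libraries or which filter made the list. Columns of other samples numbered 0, and 1 row was not used here. Without counts or depths, intervals for the levels could not be given.

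Members were found by symbol and given a role from a hand-written list. Members, roles and lists were chosen with earlier results of these data known. The text names every member, with loci for the highest 4 of each role, and the highest 5 listed genes of each list outside the pattern. Rb1 and Rbl2 are in addition named because of their roles, and Lck, Cdh1, Xcr1, Cd8a, Flt3, Zbtb46, Irf8, Batf3 and Cd68 as markers. Levels are described and no test was run, since 1 value per gene has no spread.

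Row starts, which count from 0, had 1 added. RefSeq accessions, gene types and promoters are from GRCm38.p6 and overlapping genes from GENCODE M21, both on the build of mm10. A gene counts as holding a motif if any of its RefSeq promoters holds it on either strand; 9 of 46 members (19.6%) and 15.8% of all protein-coding genes have several promoters. Of 55 member promoters, 43 had their bases after the start in a GENCODE transcript in the same direction and 0 in the opposite one. The motif search, an exact match of letters, was run on 200 simulated sequences with a planted motif, 1 spelling per motif, and recovered 200. That checks positions and strands in the code, and neither false matches nor the other spellings. The 5 motifs were chosen together with the roles, and the Cdkn1a spelling was added later. The alternatives tried were floors on FPKM, rows with accessions of 1 gene only, matching by accession, all gene types as background, a shorter promoter window and members with a cell cycle role only. The work was done in Python 3.11.15 with SciPy 1.17.1, numpy 2.4.6, pandas 2.3.3 and, for figures, matplotlib 3.10.9.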

Additional observations from a re-analysis of the deposited data

How the results depend on the processing

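Of 32 alternative values, 30 stayed within 1.5 times of the value reported or, for a share, within its 95% exact binomial interval, which treats genes as independent and covers counting error only. Some of these 30 could not have moved. Neither floor removes a replication gene, and that of 1 FPKM removes no G1/S or mitotic gene. The restriction to accessions of 1 gene leaves replication, mitosis and other roles unchanged. The interferon-type repeat, absent from the full window, cannot appear in a shorter one or in fewer members. The count of 30 is therefore no measure of robustness. The other 2 of the 32 moved. Raising the level threshold from 10 to 100 FPKM lowers the share of members past it to 10.3%, by construction. The share of members with a GC box was 58.7% in the promoter window from 100 bases before to 50 after the start, against 62.1% of all listed genes, and that with an E2F element was 6.52%, against 10.9% in the full window, still inside the interval of that share. A shorter window can hold no more matches than a longer one. The median of members was 16.9 to 24.95 FPKM over the floors of 1 and 5 FPKM, the restriction to rows with accessions of 1 gene and that to members with a cell cycle role. The number of members listed was 46 to 58. No paired analysis was possible because the only group has a single merged FPKM column, and for the same reason neither library could be left out. What depth limits was not measurable from FPKM.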
